A study of Mus musculus with 6 samples.

Results

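Transcripts of the proteasome were followed in the suprachiasmatic nucleus (SCN), the circadian pacemaker of the mammalian brain, after a pulse of light given at night. Members were taken by name: every probe set whose gene symbol in the platform annotation begins with Psm, then a letter from a to g and then a number. That rule found 85 of the 22626 probe sets on the array and 48 of the 12393 genes that the array names singly. Of those genes 2 do not encode a proteasome subunit, activator, inhibitor or assembly chaperone. Psmc3ip encodes a meiotic recombination factor and Psme3ip1 a protein that binds the activator Psme3, and both were set aside. The remaining 83 probe sets stood for 46 genes. A further 1 probe set carried the symbols of both Psme2 and Psme2b, so it named no single gene and was not counted.

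The proteasome is the large protease that degrades proteins tagged with ubiquitin. Its core particle is a barrel of stacked rings, in which the outer alpha rings gate the entrance and the inner beta rings hold the peptide-cutting sites, and its regulatory particle caps the barrel, recognises the tag, removes it and unfolds the substrate with a ring of ATPases. In immune cells and under interferon, replacement beta subunits form the immunoproteasome, and other activators can take the place of the cap. In the circadian clock the PER and CRY proteins are cleared through ubiquitin and the proteasome.

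The arrays came from adult male C57BL/6 mice of 2 to 4 months, housed singly in a 14:10 light/dark cycle, that received either a light pulse of 30 min at 2400 lux or a sham light pulse of the same length in darkness, starting 1 h after lights off. Animals of both groups were killed as the pulse ended, 1.5 h after lights off. No mutant, drug or other treatment was part of either group. Each group had 3 arrays (Affymetrix Mouse 430A 2.0), and the RNA on each array was pooled from the laser-captured SCN of 3 mice, 6 sections of 12 μm per mouse, then amplified in 2 rounds from 1 ng. The sources used here do not say whether pools shared a mouse, and the p-values speak only of how these pools varied. A lower signal from captured tissue can come from fewer cells that hold the transcript or from less RNA per cell, and the arrays cannot tell these apart.

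The deposited value is a signal intensity per probe set, scaled by array, and its 2% trimmed mean lay between 492.3 and 494.8 on the light pulse arrays and between 494.6 and 495.6 on the sham light pulse arrays. Pairs of arrays correlated at 0.886 to 0.935 over the log2 signals. The immediate-early gene Fos, used as a check of the labels, read 14253.5, 10399.9 and 14457 on the light pulse arrays and 667.7, 297.6 and 370.0 on the sham light pulse arrays (log2 difference 4.94 ± 0.31 SE, limma adjusted p = 3.16e-06). All 8 SCN marker genes passed the signal minimum, with summed signals of 71608 to 94252.5 on light pulse arrays and 60788 to 72053 on sham light pulse arrays. Vip, at 43194 to 64589 on light pulse arrays and 30270.7 to 41960.4 on sham light pulse arrays, was the largest part of that sum. Of the 8 genes 5 were higher and 3 lower after the light pulse. Light pulse replicate 3 stood apart by the choroid plexus list. Of that list 1 of 4 genes passed, Ttr, and the summed signal of the list ran from 116.6 to 110583 on light pulse arrays, the top being replicate 3, against 192.8 to 326.4 on sham light pulse arrays. Of 6 endothelial markers 3 passed, and their list summed to between 2317 and 3155 on light pulse arrays and between 3150.2 and 4035 on sham light pulse arrays. The part of these markers in the proteasome values was not tested. Without light pulse replicate 3 the medians of the lists described here were -0.48 for the alpha ring, 0.09 for the beta ring, -0.16 for the ATPases, 0.05 for the non-ATPases, 0.30 for the activators and inhibitor and 0.10 for the assembly chaperones, and those with all arrays stand with each list.

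Proteasome transcripts were readily measured in the SCN. A probe set was kept where the signal of rank 3 among its 6 reached 120, a rule that does not look at the groups. It kept 58 of the 83 proteasome probe sets, or 69.9%, against 10266 of the 22626 on the whole array, or 45.4%. By gene 40 of 46 had at least 1 kept probe set, or 87.0%. The share over all genes was not counted, and 21 of the 46 had several probe sets and so more than 1 way to pass. The constitutive core had 13 of its 15 genes above the minimum, the regulatory particle 16 of 17, the activators and inhibitor 4 of 4 and the assembly chaperones 6 of 7. The immunoproteasome had 1 of 3, and its share was not tested against the others. The genes without a kept probe set were Psma8, Psmb7, Psmb8, Psmb9, Psmd7 and Psmg4. A probe set under the minimum does not show that its transcript was absent, and the reason for the low signals was not tested. Probes bind with different strength, so the signal of one gene was not ranked against that of another.

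**Figure D1:**
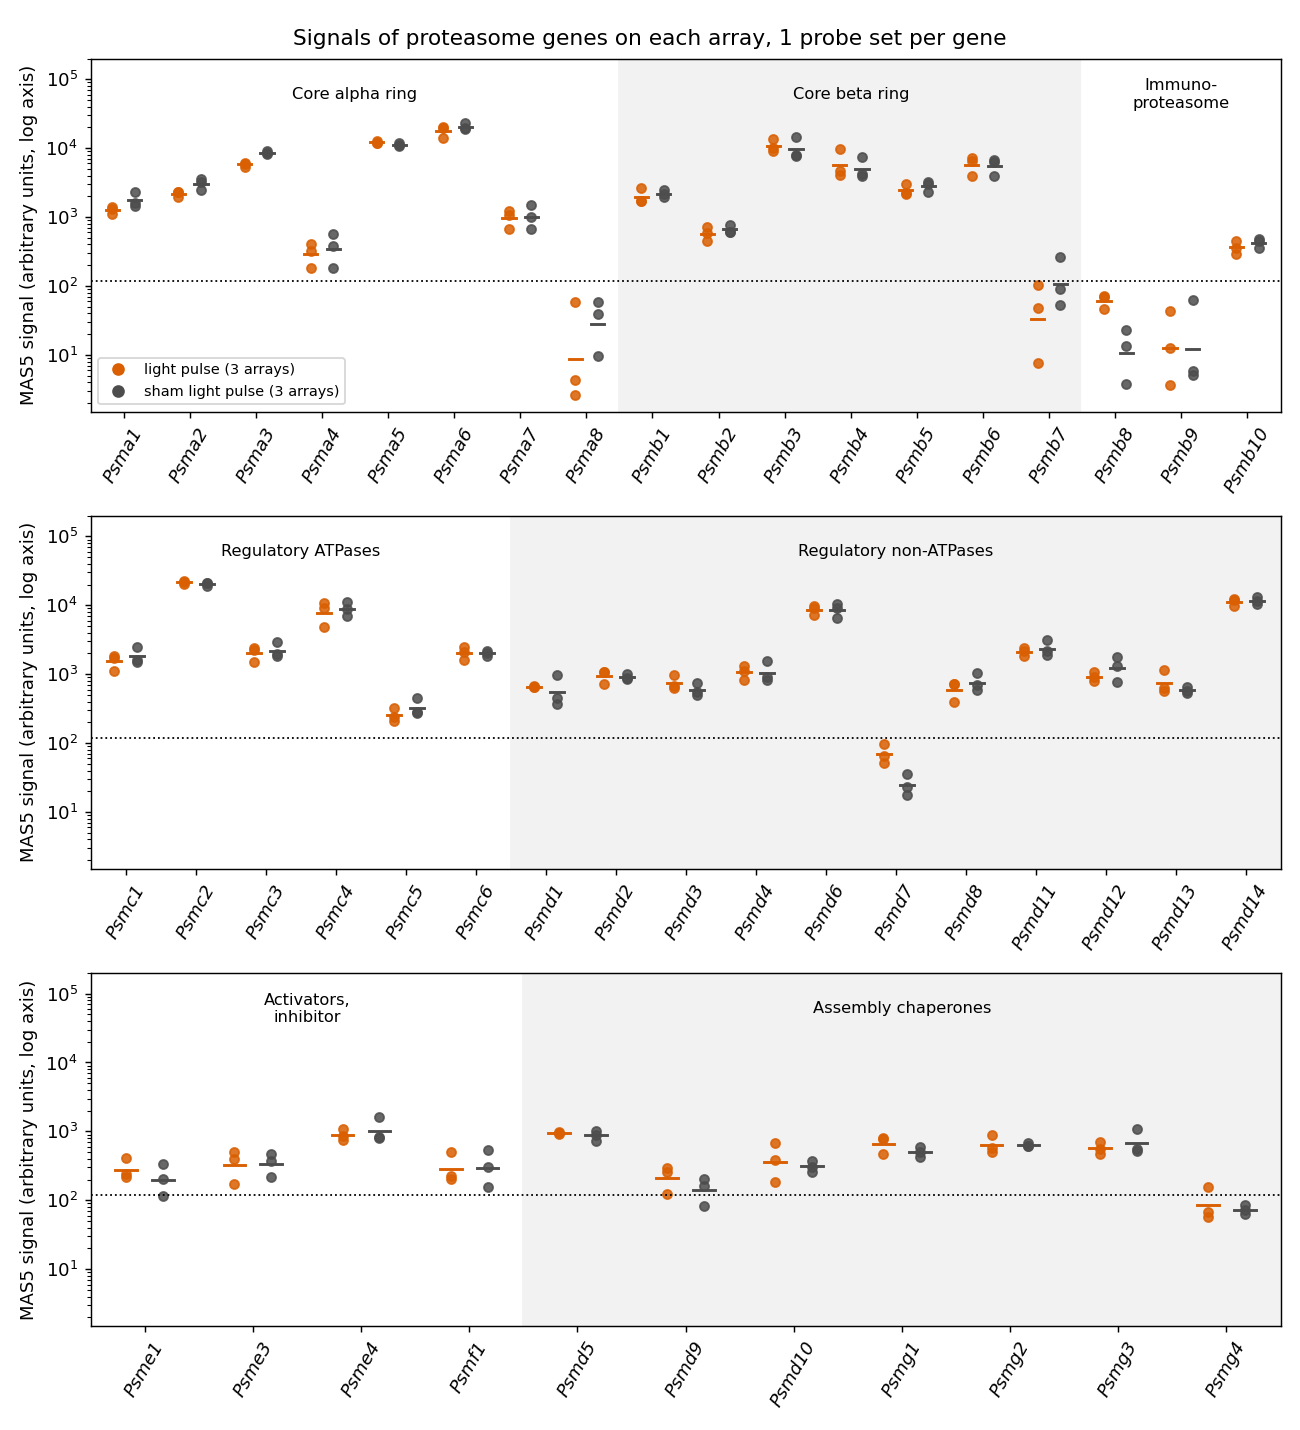
Deposited signal intensity (log axis) of the 46 proteasome genes on each array, 1 probe set per gene, with light pulse arrays to the left in orange and sham light pulse arrays to the right in grey. Bars are geometric means of 3 arrays and the dotted line is the signal minimum of 120. Psma1, Psma2 and Psma3 are the kept genes whose light pulse arrays all sit below the sham light pulse arrays.

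No proteasome probe set passed the test. With limma, 0 of 58 kept probe sets had an adjusted p under 0.05, the lowest being 0.96, while over all kept probe sets 7 of 10266 did, or 0.0682%. A Bayesian test (Cyber-T) on the same signals also called 0. At an unadjusted p under 0.05 limma gave 2 of 58 probe sets lower after the light pulse, against 2.21% of all kept probe sets, and 0 of 58 higher, against 2.1%. Cyber-T likewise gave 2 lower. Light pulse arrays lay wholly below sham light pulse arrays in 4 of the 58, against 4.46% of all kept probe sets, and wholly above in 2 of the 58, against 5.62%. With 1 probe set for each gene, the one of highest mean log2 signal, 24 of 40 genes were lower and 16 higher after the light pulse. Of all kept probe sets 49.8% were lower. The median log2 difference over the 40 genes was -0.05, and over all kept probe sets it was 0.002. Probe sets whose ID ends in _a_at, _s_at or _x_at are called probe sets of shared targets here. The median over genes was -0.20 without probe sets of shared targets, with 21 of 31 genes lower, and -0.16 without light pulse replicate 2, with 26 of 40 lower.

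The data also set limits on how large a difference could have been missed. The 95% interval of the log2 difference included 0 in 39 of 40 genes. It lay within 2-fold in either direction in 24 genes and reached past 2-fold in 16, of which 4 belonged to the core rings. The largest difference of any gene was 0.59 on the log2 scale. In 34 of 40 genes the difference was smaller than the pooled SD of the arrays within groups, whose median was 0.37. In those 16 genes a 2-fold difference was not excluded by the 3 arrays per group. These counts rest on the probe set of highest mean log2 signal for each gene. Among the 24 genes, other kept probe sets of Psma6, Psma7, Psmb1, Psmc4, Psmc6, Psmd6 and Psme4 had intervals that reached past 2-fold.

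**Figure D2:**
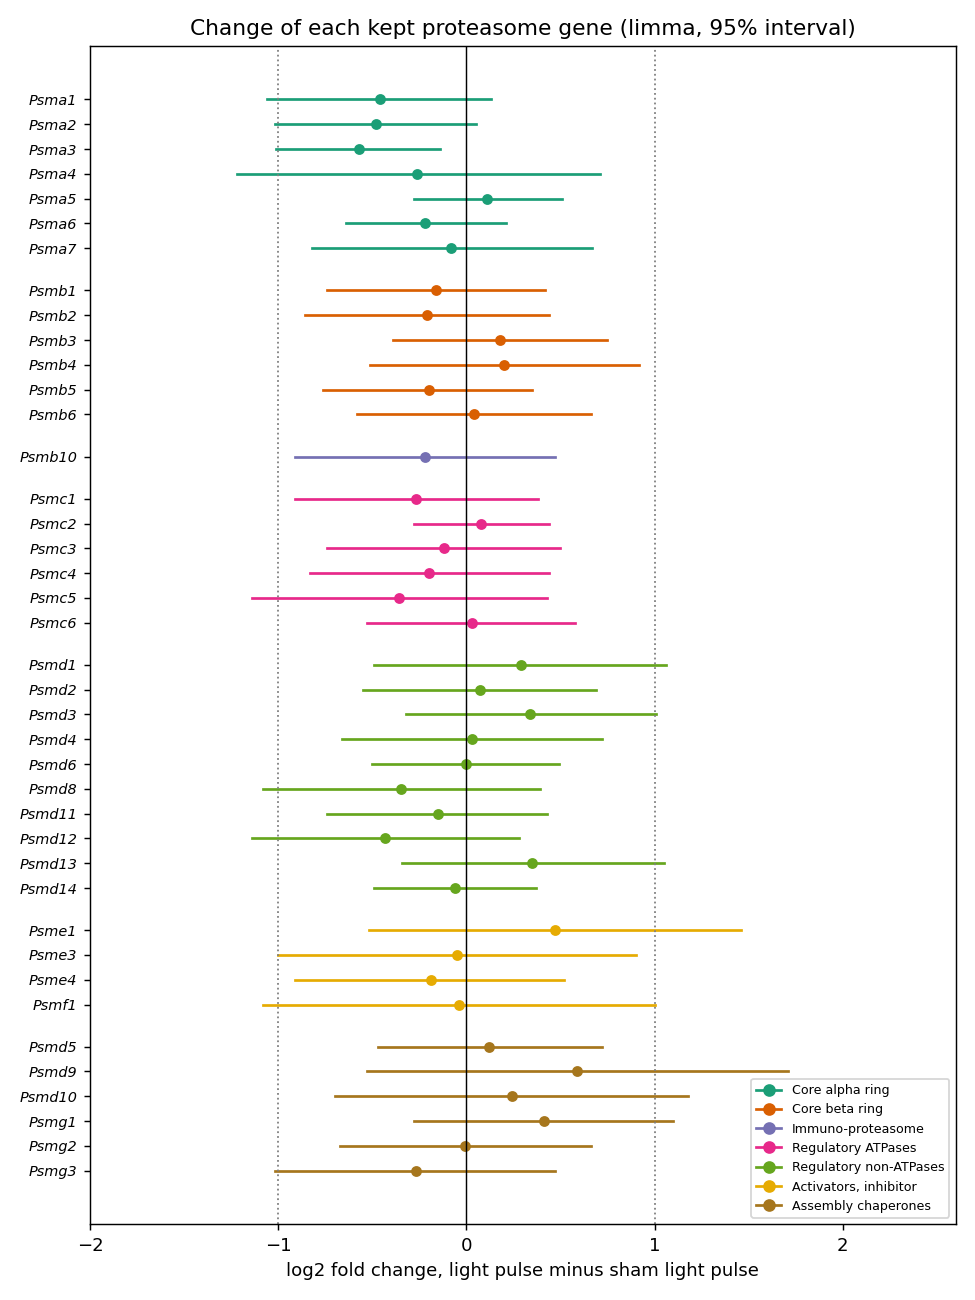
Log2 difference of signal, light pulse minus sham light pulse, of the 40 kept proteasome genes grouped by their place in the complex, with 95% intervals from limma (n = 3 arrays per group). Each gene is read by its probe set of highest mean log2 signal, and dotted lines mark a 2-fold difference. 39 of 40 intervals include 0, the exception being Psma3, and 6 of 7 alpha ring genes lie below 0.

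The alpha ring held the most members on 1 side of 0. Its subunits form the gated outer rings of the core, and 7 of its 8 genes were kept, of which 6 were lower and 1 higher after the light pulse. The median log2 difference was -0.26, over a range of -0.57 to 0.11. Psma3 had signals of 5308, 6128 and 5974 on the light pulse arrays and 8467, 9090.0 and 8339 on the sham light pulse arrays. No light pulse array reached the lowest sham light pulse array. The means were 5803.5 ± 436 after the light pulse and 8632 ± 402 after the sham light pulse (SD, n = 3 each), a ratio of geometric means of 0.672 with a 95% interval of 0.497 to 0.907. On the log2 scale the difference was -0.57 ± 0.20 (SE), with an unadjusted limma p of 0.0132 and an adjusted p of 0.96. A difference of that size did not hold after adjustment over the array.

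Psma1 and Psma2, singled out after their values were seen, had the same arrangement of arrays. Psma1 read 1402, 1123 and 1305.5 after the light pulse and 1606, 2298.5 and 1463 after the sham light pulse, a log2 difference of -0.46 ± 0.28 (SE; 95% interval -1.06 to 0.13), which was -0.27 without sham light pulse replicate 2. Psma2 read 1952, 2287 and 2321 after the light pulse and 2498, 3217 and 3534 after the sham light pulse, a log2 difference of -0.48 ± 0.25 (SE; 95% interval -1.02 to 0.05). Groups of 3 that do not overlap give an exact permutation p of 0.1 (two-sided) for Psma1, Psma2 and Psma3, the smallest that 3 arrays against 3 allow.

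The rest of the ring was less uniform. Psma6 was read by 3 kept probe sets of which the brightest gave 19369, 19997 and 13827 on light pulse arrays and 23012, 19362 and 18942 on sham light pulse arrays. Its second probe set gave 2359, 1549.8 and 1461 on light pulse arrays and 2441, 2303 and 3366 on sham light pulse arrays, a log2 difference of -0.61 ± 0.28 (SE; limma unadjusted p = 0.0482, adjusted p = 0.96). The groups overlap there, since light pulse replicate 1 exceeded sham light pulse replicate 2. Its remaining kept probe set went the other way, at 0.43 ± 0.77 (SE). Psma5, the 1 gene of the ring that was higher, read 11898, 11857 and 12695 on light pulse arrays and 10934, 12070.5 and 10687 on sham light pulse arrays. That was a log2 difference of 0.11 ± 0.19 (SE), with the arrays of the groups interleaved. The second Psma5 probe set had light pulse arrays at 1999, 1985.5 and 1785.5, all below the sham light pulse arrays at 2244, 2293 and 2551, at a log2 difference of -0.30 ± 0.24 (SE). Psma4 and Psma7 overlapped between groups on every kept probe set that stood for them. Psma8, the subunit of the testis proteasome, had no signal above 59.2 on any array.

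The alpha ring median depended on single arrays and on the choice of probe sets. Without sham light pulse replicate 1 it was -0.53 and without light pulse replicate 3 it was -0.48. Over the 6 arrays left out in turn it ran from -0.53 to -0.25, and the genes lower after the light pulse numbered 4 of 7 without sham light pulse replicate 2 or without light pulse replicate 1. The values of Psma3 under the same omissions ran from -0.62 to -0.51, and without light pulse replicate 1 its unadjusted limma p was 0.0511. Without probe sets of shared targets, which takes out Psma3 and Psma5, 5 genes of the ring remained, and their median was -0.46.

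Windows of promoter sequence from RefSeq (GRCm38.p6), spanning 250 bases before to 50 after the start of the gene, were available for 38 of the 46 genes. In the alpha ring 5 of the 7 genes with a window, Psma1, Psma2, Psma3, Psma6 and Psma7, had the letters CCAAT on either strand, the CCAAT box bound by the factor NF-Y. Over all proteasome genes the box was in 13 of 38 windows, or 34.2%, and over the windows of all 27025 genes in 41.1%. The stretches of the 3 alpha ring genes with separated groups are shown, 5′ to 3′ on the strand of the gene, with the box in capitals in either orientation. Psma1 is shown from chr7:114276167-114276286 on the minus strand, positions -170 to -51 from its start. Psma2 is shown from chr13:14613122-14613241 on the plus strand, positions -120 to -1. Psma3 is shown from chr12:70974426-70974545 on the plus strand, positions -197 to -78.
Psma1: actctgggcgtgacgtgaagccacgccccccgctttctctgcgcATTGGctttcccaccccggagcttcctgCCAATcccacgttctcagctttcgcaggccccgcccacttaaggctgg
Psma2: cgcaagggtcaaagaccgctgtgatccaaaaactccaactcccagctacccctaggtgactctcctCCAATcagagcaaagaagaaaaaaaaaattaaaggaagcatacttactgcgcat
Psma3: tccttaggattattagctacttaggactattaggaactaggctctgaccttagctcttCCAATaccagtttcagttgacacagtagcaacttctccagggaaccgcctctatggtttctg
The stretch of Psma1 holds 2 boxes, in opposite orientations, and those of Psma2 and Psma3 hold 1 each. The window of Psma3 holds 2 further matches outside that stretch, at positions 13 and 30 from its start. A match of letters is a description of the sequence and says nothing of what binds there.

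In the beta ring, which carries the cutting sites, 3 of the 6 kept genes were lower and 3 higher after the light pulse, with a median log2 difference of -0.06 and a range of -0.21 to 0.20. Leaving out sham light pulse replicate 2 gave a median of -0.23, and leaving out light pulse replicate 3 gave 0.09. Psmb5, the chymotrypsin-like subunit, read 2168, 2999 and 2261 on light pulse arrays and 3272, 2290.2 and 2986 on sham light pulse arrays. Its log2 difference was -0.20 ± 0.26 (SE; 95% interval -0.76 to 0.35), and the groups overlapped. Leaving out replicate 2 of either group gave -0.35, and leaving out sham light pulse replicate 1 gave -0.09. Psmb6, the caspase-like subunit, read 6477, 7243 and 3896.5 on light pulse arrays and 6318, 3913 and 6810.1 on sham light pulse arrays. Its log2 difference was 0.04 ± 0.29 (SE; 95% interval -0.58 to 0.66), with high and low arrays in both groups. It took both signs as single arrays were left out, -0.21 with sham light pulse replicate 2 omitted and 0.31 with light pulse replicate 3 omitted. Psmb7, the trypsin-like subunit, was not kept, with signals of 102.1, 48.7 and 7.7 on light pulse arrays and 91.3, 53.4 and 259.2 on sham light pulse arrays. The sole probe set named for it passed 120 on 1 array only, sham light pulse replicate 3.

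The structural beta subunits showed the same mixture. Psmb1 gave the largest difference of the list on its second probe set, which read 492.2, 434.5 and 526.1 on light pulse arrays and 376.5, 418.4 and 319.8 on sham light pulse arrays. All light pulse arrays were above all sham light pulse arrays there, at a log2 difference of 0.39 ± 0.30 (SE). The brightest Psmb1 probe set had 1708, 2648 and 1683 on light pulse arrays and 2187, 1944 and 2482 on sham light pulse arrays, which overlap, at a log2 difference of -0.16 ± 0.27 (SE). Psmb2 read 721.9, 581.1 and 452.2 on light pulse arrays and 612.6, 616.6 and 774.1 on sham light pulse arrays. Light pulse replicate 1 lay inside the sham light pulse range and the other two below it. Psmb3, also structural, spanned 7730.3 to 14494 over the 6 arrays, and both ends of that range were sham light pulse arrays. Its kept probe sets gave log2 differences of 0.18 ± 0.26 and -0.06 ± 0.42 (SE). Psmb4 read 4737.5, 9639 and 4106 on light pulse arrays and 7407, 3972 and 4172 on sham light pulse arrays, which overlap. Its kept probe sets gave log2 differences of 0.20 ± 0.33 and -0.20 ± 0.25 (SE).

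All 38 promoter windows were also searched for the antioxidant response element, TGACNNNGC on either strand. Through it the factors Nfe2l1 and Nfe2l2 act on stress-response and proteasome genes. This element was in 6 of 38 proteasome windows, or 15.8%, and in 14.0% of all genes. Psmb5 and Psmb6 had it, as did Psmc6, Psmd9, Psmd12 and Psme4, and 0 of 7 alpha ring windows did. Psmb7, the other catalytic gene of the constitutive core, was not among the genes with a match. The element is shown in capitals for Psmb5, from chr14:54618009-54618068 on the minus strand, and for Psmb6, from chr11:70525297-70525356 on the plus strand.
Psmb5: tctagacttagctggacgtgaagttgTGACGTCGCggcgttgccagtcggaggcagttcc
Psmb6: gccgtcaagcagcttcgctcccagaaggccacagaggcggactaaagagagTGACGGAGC
The cAMP response element, TGACGTCA, which reads the same on both strands and is the site of the light-responsive factor CREB and shares its opening letters with the antioxidant response element, was in 0 of 38 proteasome windows and in 2.03% of all genes. That count covers these letters in these windows alone.

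Of the immunoproteasome genes 2 of 3 stayed under the signal minimum and 1, Psmb10, was measured. Psmb8, the interferon-induced replacement of Psmb5, read 68.7, 46.9 and 70.6 on light pulse arrays and 3.8, 13.4 and 22.6 on sham light pulse arrays. Each light pulse array was above each sham light pulse array, yet all 6 lay under the signal minimum and the probe set was left out of the fit. With no minimum 12400 of all 22626 probe sets were higher and 10226 lower after the light pulse. How many probe sets under the minimum were separated as Psmb8 was, by array, was not counted. Psmb9, the replacement of Psmb6, read 12.4, 3.7 and 43.1 on light pulse arrays and 5.1, 5.8 and 62.8 on sham light pulse arrays, all under the minimum as well. Psmb10, the replacement of Psmb7, was kept, at 295.0, 455.1 and 357.8 on light pulse arrays and 475.7, 446.0 and 356.9 on sham light pulse arrays. Its log2 difference was -0.22 ± 0.32 (SE; 95% interval -0.91 to 0.47), and the groups overlapped. It ran from -0.38 without light pulse replicate 2 to -0.07 without light pulse replicate 1. With no signal minimum the 3 immunoproteasome genes had a median log2 difference of 0.03, and all 22626 probe sets had 0.0704.

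Interferon response and antigen presentation genes, the surroundings in which the immunoproteasome works, were also read. Of 14 on the array 9 were kept, 7 higher and 2 lower after the light pulse, with a median log2 difference of 0.20. Of these 0 were called by limma and 0 had an unadjusted p under 0.05. Light pulse replicate 3 held the top signals of Ifit3, at 1066.3, and Gbp3, at 278.4, both among the 7. It did not hold those of Irf7 and Tap1, also among the 7, and the list was not read without that array. The interferon-stimulated response element, searched on either strand, was in 5 of 38 proteasome windows (Psmb3, Psmd4, Psmd9, Psme1 and Psmg4), or 13.2%, and in 3.99% of all genes. Psmb9 and the alpha ring genes had none in their windows.

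The ATPases of the regulatory particle, which unfold the substrate and open the alpha ring gate, were all measured, 6 of 6. After the light pulse 4 were lower and 2 higher, with a median log2 difference of -0.16 and a range of -0.36 to 0.08. The median was -0.02 with light pulse replicate 1 left out, -0.28 with sham light pulse replicate 2 left out and -0.27 over the 5 genes left, all lower, without probe sets of shared targets. Psmc2 read 22734, 20358 and 21926 on light pulse arrays and 21166, 21199.9 and 19209.8 on sham light pulse arrays. Its groups overlapped, and its kept probe sets gave log2 differences of 0.08 ± 0.17 and -0.23 ± 0.25 (SE). Psmc6 gave the largest difference among all kept ATPase probe sets, on a second probe set whose ID marks targets shared between transcripts: 2318, 1015 and 1711 on light pulse arrays and 2189.9, 2967 and 2242 on sham light pulse arrays. The low value was light pulse replicate 2, and light pulse replicate 1 lay within the sham light pulse range. The log2 difference was -0.62 ± 0.31 (SE; 95% interval -1.30 to 0.06; limma unadjusted p = 0.0701, adjusted p = 0.96). It was -0.29 without light pulse replicate 2 and -0.89 without light pulse replicate 1. The brightest Psmc6 probe set, also one of shared targets, read 2113, 1621 and 2474 on light pulse arrays and 2009.6, 2143 and 1864.5 on sham light pulse arrays, a log2 difference of 0.03 ± 0.26 (SE). Psmc5 read 208.1, 241.6 and 326.8 on light pulse arrays and 280.4, 273.9 and 448.3 on sham light pulse arrays, a log2 difference of -0.36 ± 0.37 (SE), with overlap. Psmc1, Psmc3 and Psmc4 overlapped between groups.

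The non-ATPase subunits, some of which bind or remove ubiquitin, were balanced. Of 11 genes 10 were kept, 5 lower and 5 higher, with a median log2 difference of 0.01, which ran from -0.04 to 0.05 as single arrays were left out. Psmd14, the deubiquitinase of the lid, read 12161, 9647 and 11979.8 on light pulse arrays and 10513.5, 13153 and 11482 on sham light pulse arrays. Psmd4, a ubiquitin receptor, read 1124, 1326 and 829.8 on light pulse arrays and 910.8, 817.1 and 1550.1 on sham light pulse arrays. Both overlapped between groups. Psmd1, a scaffold of the base, read 646.2, 684.5 and 659.2 on light pulse arrays and 448.5, 372.6 and 961.7 on sham light pulse arrays. The light pulse arrays of Psmd1 were tight, while its sham light pulse arrays held both the lowest and the highest of the 6. Psmd2, the other scaffold, read 712.8, 1094 and 1083 on light pulse arrays and 869.3, 992.8 and 846.2 on sham light pulse arrays, again with overlap.

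The lid subunit Psmd12 had the largest difference of this list, with 1079, 788.7 and 899.0 on light pulse arrays and 778.5, 1802 and 1335 on sham light pulse arrays. Sham light pulse replicate 1 was the lowest array of the 6, so the groups overlap. The log2 difference was -0.43 ± 0.33 (SE; 95% interval -1.14 to 0.28; limma unadjusted p = 0.214, adjusted p = 0.96). It was -0.76 without sham light pulse replicate 1 and -0.16 without sham light pulse replicate 2. The lid subunit Psmd11 was read by 6 probe sets, of which 3 were kept. The second of these, also one with shared targets, had light pulse arrays at 1673, 1578 and 2017, all above sham light pulse arrays at 1424, 1074 and 1504, while the brightest read 1838, 2364 and 2170.1 on light pulse arrays and 3185, 2171 and 1878 on sham light pulse arrays, with overlap. The log2 differences of the kept probe sets were -0.15 ± 0.27, 0.40 ± 0.27 and -0.08 ± 0.41 (SE). Psmd7, the partner of Psmd14 in the lid, had 3 probe sets and none kept, with signals from 3.3 to 97.2. None of them reached the signal minimum on any array.

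The activators and the inhibitor, 4 of 4 kept, had 3 genes lower and 1 higher and a median log2 difference of -0.05. That direction turned without light pulse replicate 3, at 0.30 with 1 of 4 genes lower, and without sham light pulse replicate 3, at 0.29 with 1 of 4 lower. Psme1, a subunit of the interferon-induced activator, read 237.1, 417.4 and 216.2 on light pulse arrays and 202.2, 116.5 and 341.6 on sham light pulse arrays. Psme3, the nuclear activator, read 393.1, 501.9 and 171.5 on light pulse arrays and 371.0, 215.2 and 467.6 on sham light pulse arrays. Both overlapped between groups. Psme4, a large activator that acts as a single chain, read 866.7, 752.0 and 1091 on light pulse arrays and 820.9, 1625 and 800.0 on sham light pulse arrays. The sham light pulse replicate 2 value stood above the other arrays.

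Psmf1, the inhibitor of the core, was read by 3 kept probe sets. The dimmest of them read 59.4, 165.0 and 5.3 on light pulse arrays and 154.7, 151.0 and 40.9 on sham light pulse arrays, the largest log2 difference of any member, -1.40 ± 1.34 (SE; 95% interval -4.28 to 1.48). Light pulse replicate 3 set that value, and without it the difference was 0.01. The brightest Psmf1 probe set read 226.5, 500.9 and 204.7 on light pulse arrays and 308.9, 154.8 and 531.5 on sham light pulse arrays, a log2 difference of -0.04 ± 0.48 (SE). On the kept probe set between these in signal the log2 difference was 0.28 ± 0.38 (SE), with overlap.

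The assembly chaperones, which help build the rings and then leave, had a median log2 difference of 0.18, with 4 genes higher and 2 lower of the 6 kept. With single arrays left out the median ran from 0.10 without light pulse replicate 3 to 0.38 without light pulse replicate 1, and under the stricter filter it was 0.06. Psmd9, a chaperone of the ATPase ring, read 121.9, 259.7 and 293.7 on light pulse arrays and 83.3, 159.1 and 205.3 on sham light pulse arrays. Its log2 difference was 0.59 ± 0.52 (SE; 95% interval -0.53 to 1.71; limma unadjusted p = 0.278, adjusted p = 0.96), and the groups overlapped. It was 0.22 without sham light pulse replicate 1, 0.35 without light pulse replicate 3 and 0.98 without light pulse replicate 1. Psmg1, which pairs with Psmg2 to assemble the alpha ring, read 466.4, 812.3 and 771.6 on light pulse arrays and 587.7, 495.6 and 425.8 on sham light pulse arrays. Psmg2 read 901.5, 495.8 and 578.5 on light pulse arrays and 617.6, 619.5 and 684.9 on sham light pulse arrays. The log2 differences were 0.41 ± 0.32 for Psmg1 and -0.01 ± 0.31 for Psmg2 (SE), and the groups overlapped in both. Psmd10, Psmd5 and Psmg3 overlapped between groups too, and Psmg4 was not kept.

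Some genes were read more than once. Of the 46 genes 21 had several probe sets and 14 had several kept. In 9 of those 14 (Psma5, Psma6, Psmb1, Psmb3, Psmb4, Psmc2, Psmc6, Psmd11 and Psmf1) the kept probe sets included both signs, in 4 all were lower and in 1 all were higher after the light pulse. Apart from the second Psma6 probe set their 95% intervals all include 0, and no difference between probe sets of 1 gene was tested. In 12 genes some probe sets were kept and others not. Across all 58 kept probe sets 37 were lower and 21 higher, with a median of -0.10.

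**Figure D3:**
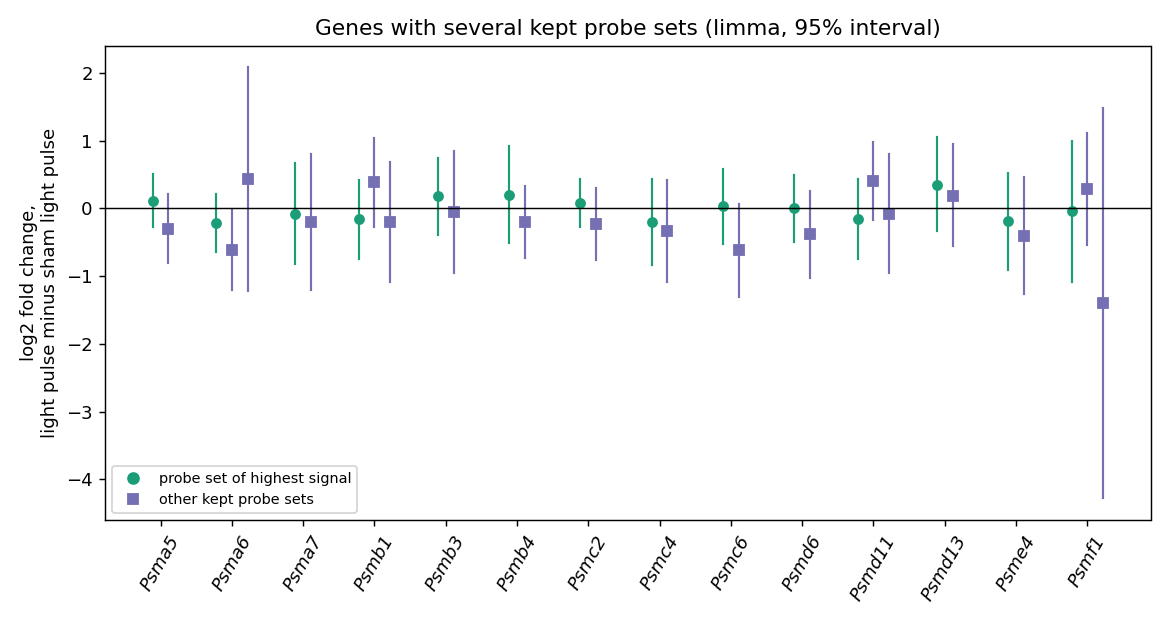
Log2 difference of signal, light pulse minus sham light pulse, of every kept probe set of the 14 genes that had several. Circles are the probe set of highest mean signal and squares the others, with 95% intervals from limma. In 9 of 14 genes the probe sets fall on both sides of 0.

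The constitutive core and the regulatory particle were then set side by side. The core had 9 genes lower and 4 higher, with a median log2 difference of -0.20, and the regulatory particle 9 lower and 7 higher, with a median of -0.03. The difference between these lists was not tested, since their genes are read on the same 6 arrays and are not replicates. By array, the median deviation of the alpha ring genes from their own mean was -0.40, 0.02 and -0.15 on the light pulse arrays and -0.05, 0.36 and 0.03 on the sham light pulse arrays. Light pulse replicate 1 and sham light pulse replicate 2 were thus the ends of that range, and the other arrays overlapped. For the beta ring the deviations were 0.02, 0.27 and -0.34 on light pulse arrays and 0.25, -0.30 and 0.22 on sham light pulse arrays. The activators and inhibitor swung furthest, from 0.70 on light pulse replicate 2 to -0.76 on sham light pulse replicate 2. For all 40 genes together the deviations stayed between -0.12 and 0.12.

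**Figure D4:**
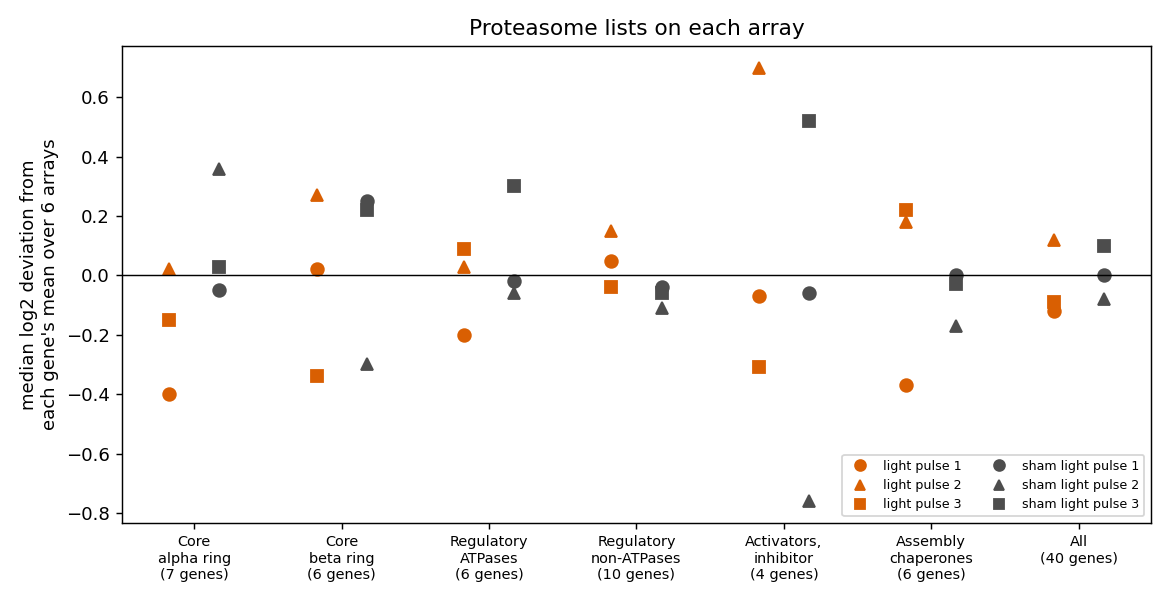
Median deviation of log2 signal from the mean of each gene over the 6 arrays, by list and array, with light pulse arrays to the left in orange and sham light pulse arrays to the right in grey. For all 40 genes together the arrays lie between -0.12 and 0.12, and the activators and inhibitor, with 4 genes, spread from -0.76 to 0.70.

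Other genes of the ubiquitin and proteasome pathway were read beside the members. Of 16 on the array 15 were kept, 10 lower and 5 higher after the light pulse, with a median log2 difference of -0.06, 0 called by limma and 0 at an unadjusted p under 0.05. Over all 24 kept probe sets of these genes, light pulse arrays lay wholly below sham light pulse arrays in 4 and wholly above in 0, against 4.46% and 5.62% of all kept probe sets. The genes of those 4 were Pomp, Txnl1, Ube3a and Usp14, chosen after their values were seen. For Txnl1 the log2 difference there was -0.43 ± 0.33 (SE). Its other kept probe sets, the brightest among them, gave 0.04, 0.35 and 0.05, with overlap. Ube3a, a ubiquitin ligase that binds the proteasome, read 728.5, 652.8 and 580.5 on light pulse arrays and 1047, 915.9 and 901.0 on sham light pulse arrays, a log2 difference of -0.55 ± 0.28 (SE; limma unadjusted p = 0.0676, adjusted p = 0.96). Usp14, a deubiquitinase of the regulatory particle, read 374.6, 437.7 and 316.2 on light pulse arrays and 515.9, 550.1 and 718.7 on sham light pulse arrays by its dimmest kept probe set, a log2 difference of -0.66 ± 0.31 (SE; limma unadjusted p = 0.0512, adjusted p = 0.96). Its other kept probe sets gave -0.43 and 0.32, with overlap. Pomp, the maturation factor of the core, read 918.6, 971.8 and 974.6 on light pulse arrays and 1007, 1421 and 1143 on sham light pulse arrays, a log2 difference of -0.30 ± 0.27 (SE). Nfe2l1, the transcription factor that raises proteasome genes when the protease is inhibited, read 559.5, 863.4 and 822.1 on light pulse arrays and 638.2, 815.8 and 835.0 on sham light pulse arrays, with overlap.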

How the data were processed

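Each of 6 arrays, 3 after a light pulse and 3 after a sham light pulse by their labels, gave 1 intensity per probe set, which the authors calculated with the MAS5 algorithm in Affymetrix GCOS software and deposited on a linear scale. Genes were named through the platform annotation, from probe sets with a single symbol. The log2 intensity, with no offset, was fitted in limma 3.58.1 (R 4.3.3; lmFit and trended eBayes; two-sided), and p-values were adjusted by Benjamini-Hochberg over the 10266 probe sets whose rank 3 signal reached 120. Present calls were not used here. Members and lists were chosen with earlier results of these data known.

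Fold changes were printed for called members, or else those at an unadjusted p under 0.05, for Psmb5 to Psmb10, for the largest difference of each list, and for probe sets of both signs. Other lists had only called genes, or else those at an unadjusted p under 0.05, as their rule. Differences of Psma1, Psma2, Psmc5, Psmg1, Psmg2 and the other pathway genes were chosen after their values were seen. Alternatives were no filter, 5000 probe sets kept, quantile normalization, scaling to the 75th percentile, an offset of 50, an untrended fit, Cyber-T (prior weight 10) rewritten from its description, the replicate number as a block, other choices of probe set, and each array left out. The fit was tested on simulated data. The precision is limited by 3 arrays per group. Protein sequences were not used here.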

Additional observations from a re-analysis of the deposited data

How the results depend on the processing

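Proteasome probe sets called numbered 0 under every alternative run, and the calls over the whole array stayed within 1.5 times the 7 reported except with no intensity trend, at 4. Leaving out 1 array at a time gave 5 to 8 calls over the whole array. The median log2 difference of all proteasome genes was -0.20 without probe sets whose ID marks shared targets, which leaves 31 genes, against -0.05 with them. With 1 array left out in turn the alpha ring median ran from -0.53 to -0.25, Psmb6 from -0.21 to 0.31 and the dimmest Psmf1 probe set from -2.47 to 0.01. The cause was not tested. The medians of the beta ring, the non-ATPases and the activators and inhibitor also took both signs when single arrays were left out. Of 164 values of named members under the alternatives 160 kept their sign and 0 were called, with adjusted p from 0.89 to 1.0. With the replicate number as a block 0 proteasome probe sets and 6 over the whole array were called, and the unadjusted limma p of Psma3 was 0.0333. Samples of the same number had correlations of deviations of 0.098, -0.198 and -0.132, and those of different numbers ran from -0.114 to 0.207. Values this weak show no sign of pairing, but whether arrays of the same number were handled together was not tested. Dim probe sets had the widest errors, and 3 arrays per group limit every comparison.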

Other observations

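Of the 2 genes that the naming rule found and that were set aside, Psme3ip1 read 451.5, 429.9 and 384.2 on light pulse arrays. On sham light pulse arrays it read 491.6, 542.9 and 660.3. Every light pulse array was below every sham light pulse array, at a log2 difference of -0.41 ± 0.30 (SE). Psmc3ip read 84.0, 87.2 and 23.4 on light pulse arrays and 127.1, 131.4 and 74.2 on sham light pulse arrays, and it did not pass the signal minimum. The interferon-induced gene Ifit3 read 126.0, 115.3 and 1066.3 on light pulse arrays and 243.3, 194.0 and 216.4 on sham light pulse arrays, so that light pulse replicate 3 alone was high. Among the marker lists the endothelial receptor gene Flt1 read 291.6, 72.6 and 158.9 on light pulse arrays and 505.4, 325.5 and 511.7 on sham light pulse arrays (log2 difference -1.55 ± 0.48 SE, limma unadjusted p = 0.00636, adjusted p = 0.96). The SCN peptide gene Vip read 43194, 46396.5 and 64589 on light pulse arrays and 41694, 41960.4 and 30270.7 on sham light pulse arrays (log2 difference 0.43 ± 0.19 SE, limma unadjusted p = 0.0437, adjusted p = 0.96).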
